A study of Homo sapiens with 8 samples.

Results

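The heat shock proteins of the cytosol and of mitochondria were examined in Caco-2 cells with and without Siglec-XII, through 10 genes of 63816 entries in the expression table: HSPA1A, HSPA1B, HSPA8, HSPH1, HSP90AA1, HSP90AB1, DNAJB1, HSPB1, HSPD1 and HSPE1. An entry was taken when the symbol it carries was one of these names, and where a symbol stood on several entries the entry with the highest mean was used. This applied to HSPA1A and HSPA1B, with 5 entries each, while 8 genes had a single entry. None of the 10 was past an adjusted p of 0.05 between the groups in limma, and HSPE1 alone was past an unadjusted p of 0.05, with a mean 0.893-fold that of the empty vector on the TPM + 1 scale. Of all tested entries 16.5% were past that unadjusted p, 13.9% higher and 2.61% lower with Siglec-XII, and 1 gene of 10 is too few to set against these shares. HSPE1 fell short of that p without Siglec-XII replicate 2 or 4.

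Heat shock proteins are molecular chaperones, which bind unfolded or partly folded proteins and keep them from clumping. HSP70 proteins cycle on and off their clients with ATP, J-domain proteins such as DNAJB1 bring clients to them and start the cycle, and HSP110 proteins such as HSPH1 release the spent nucleotide. HSP90 takes over late folding of kinases and steroid receptors, the small protein HSPB1 holds clients without ATP, and HSPD1 with its lid HSPE1 forms the folding chamber of the mitochondrial matrix. Under heat or other protein damage the transcription factor HSF1 binds repeated short sequences, the heat shock elements, in front of many of these genes and raises their transcription. Tumor cell lines commonly hold high levels of several of these chaperones without heat.

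Caco-2 is an established human colorectal adenocarcinoma line that the study chose because it lacks Siglec-XII, a sialic acid receptor family member whose human form does not bind sialic acid. Cells were stably transfected with the empty plasmid pcDNA3.1 (empty vector) or with the plasmid carrying full-length SIGLEC12 (Siglec-XII), and both were selected with an antibiotic, so the control cells carry the plasmid and the selection too. The labels list 4 samples per group. The series text speaks of selected clones and of 3 cultures per condition and the methods of technical replicate libraries, so whether the 4 are separate cultures or clones is not known, and the p-values measure only the spread between these libraries.

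SIGLEC12 itself checked the labels. Its level was 0.0399 to 0.122 TPM in the 4 empty vector libraries and 1582 to 1734 TPM in the 4 Siglec-XII libraries. TPM gives transcripts relative to all RNA of a library and per transcript length, so levels can be compared between genes. Of 12 markers of intestinal epithelium, 2 passed the filter, the transcription factors CDX1 and CDX2, while 8 stayed under 1 TPM in every library, and of these FABP1, SI and KRT20 were listed at 0. All 6 general epithelial markers passed, as did 9 of 12 markers of trophoblast, 4 of 6 of fibroblasts, 2 of 6 of germ or pluripotent cells and 1 of 5 of leukocytes. CDX1 and CDX2 had means of 139 and 37.3 TPM with the empty vector, and 156 and 43.9 TPM with Siglec-XII. Levels within the trophoblast list differed widely. The highest, HSD3B1 and GATA3, had means of 344 and 402 TPM with the empty vector, and 345 and 359 TPM with Siglec-XII. With the empty vector SIGLEC6, TFAP2A and CYP19A1 had means of 134, 33.0 and 4.25 TPM. CGA, ERVW-1, ERVFRD-1 and PSG1 were near the filter, at 0.982, 1.40, 1.33 and 1.35 TPM, and CGB3, CGB5 and CGB8 did not pass it. All 6 general epithelial markers had higher means with Siglec-XII, 5 of them at an unadjusted p of 0.05 or less and 3 without overlap of the groups, with KRT8 at 3903 ± 213 and 4617 ± 111 TPM (SD, n = 4, adjusted p = 0.0860 in limma). Of all tested entries 13.9% were higher at that unadjusted p and 9.17% were higher without overlap. Of the markers, only SALL4, a stem cell transcription factor, was past the adjusted p with a log2 fold change of 0.34 (adjusted p = 0.0244 in limma), and the part of these markers in the results was not tested. Caco-2 is used here as the labelled name, although most of the enterocyte markers that define the line were near 0 in both groups. The read depth of each library is not given by the table, the labels state about 25000000 to 40000000 reads each, and correlations across tested entries ran from 0.979 to 0.984 within groups and from 0.972 to 0.980 between them.

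The sequences in front of the genes were searched for heat shock elements. A heat shock element is built of short inverted units, and its core was searched on both strands as TTCNNGAA or GAANNTTC for a pair of units, and for 3 units as TTC and GAA in alternation with NN between neighbours. Every 3-unit match therefore also counts as pairs. In RefSeq promoter windows of GRCh38.p14, from 250 bases before to 50 bases after a listed gene start, the pair stood in 16.2% of 27305 symbols and in 8 of the 10 genes. The 3-unit form stood in 0.608% of symbols and in 4 of the 10, namely HSPA8, HSP90AA1, HSP90AB1 and HSPD1. Stretches of 60 bases before the start are shown 5′ to 3′ on the gene's strand, with the matches in capitals, to let the forms be compared.
HSPA8, chr11:123062156-123062215, minus strand: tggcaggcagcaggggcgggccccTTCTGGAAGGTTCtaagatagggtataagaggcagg
HSP90AB1, chr6:44247807-44247866, plus strand: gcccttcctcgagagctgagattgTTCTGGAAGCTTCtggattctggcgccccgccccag
HSP90AA1, chr14:102087097-102087156, minus strand: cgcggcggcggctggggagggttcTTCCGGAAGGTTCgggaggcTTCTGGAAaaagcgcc
HSPD1, chr2:197500031-197500090, minus strand: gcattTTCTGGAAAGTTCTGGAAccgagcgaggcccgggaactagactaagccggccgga
HSPA1A, chr6:31815411-31815470, plus strand: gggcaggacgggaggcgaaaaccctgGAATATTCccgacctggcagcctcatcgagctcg
HSPA1B, chr6:31827607-31827666, plus strand: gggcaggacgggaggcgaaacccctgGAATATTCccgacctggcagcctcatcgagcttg
DNAJB1, chr19:14518441-14518500, minus strand: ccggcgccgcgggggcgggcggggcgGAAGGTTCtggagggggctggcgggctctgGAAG
HSPB1, chr7:76302465-76302524, plus strand: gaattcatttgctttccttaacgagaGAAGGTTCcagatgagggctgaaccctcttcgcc

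The 3-unit match of HSPA8 lay 55 to 43 bases before the start and a second one further upstream in the same window, and HSP90AB1 likewise held 2. The stretches of HSPA1A and HSPA1B, neighbouring copies of one gene, carry the same pair in nearly the same surroundings. In the DNAJB1 stretch the last capitals are the beginning of a second pair that runs past its end. No match stood in the windows of HSPH1 and HSPE1. The HSPE1 window begins at position 197500129 of chromosome 2, beyond the end of the printed HSPD1 stretch, so the 3-unit match of HSPD1 lies outside it. A match here is a run of letters, and its absence says only that these letters are not in the window.

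The abundant members were among the most abundant entries of every library. HSPA8, the constitutive HSP70 that folds newly made proteins, had the highest level with a mean of 3505 ± 152 TPM (SD, n = 8) and ranked between 22 and 28 in each library. HSPD1 followed with 1758 ± 82.9 TPM. The cytosolic HSP90 pair came next, HSP90AB1 with 1213 ± 25.4 TPM and HSP90AA1 with 1196 ± 44.2 TPM, and the ranges of these neighbours over the 8 libraries overlapped. HSPE1 had 926 ± 74.7 TPM, HSPB1 493 ± 23.5 TPM and HSPH1 394 ± 14.4 TPM, and from HSP90AA1 down to HSPA1A no range met the next. The last 3, HSPA1A with 108 ± 7.0 TPM, DNAJB1 with 101 ± 7.23 TPM and HSPA1B with 82.6 ± 14.4 TPM, overlapped with their neighbours. Together the 10 entries held 0.988% ± 0.0107 of all TPM in the empty vector libraries and 0.967% ± 0.0254 in the Siglec-XII libraries (SD, n = 4).

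**Figure D1:**
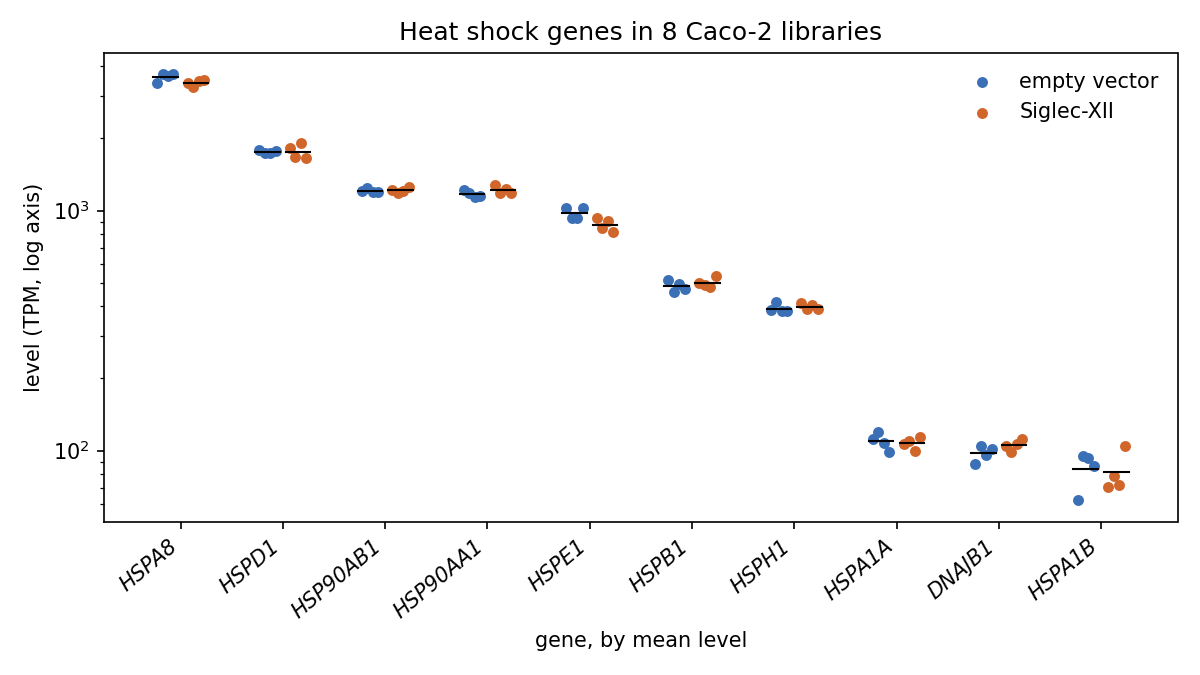
Level of each heat shock gene in TPM, on a log axis, in the 4 empty vector and the 4 Siglec-XII libraries, one point per library and a line at each group mean. The order of the genes is the same in both groups apart from near neighbours, and the groups overlap for every gene except HSPE1.

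Between the groups, 0 of the 10 genes were past an adjusted p of 0.05 in limma (Benjamini-Hochberg over 15590 tested entries), where 0.648% of all tested entries were (0.34% higher and 0.308% lower with Siglec-XII). At an unadjusted p of 0.05 or less there was 1 of 10, where 16.5% of all were (13.9% higher and 2.61% lower). HSPE1 was that gene and also the only one whose groups did not overlap, against 10.8% of all tested entries without overlap in either direction and 1.68% with all Siglec-XII libraries lower. Means were higher with Siglec-XII for 6 genes and lower for 4, against 68.1% higher over all tested entries. This split depended on the scaling. With equal upper quartiles HSPH1, HSP90AA1, HSP90AB1, HSPB1 and HSPD1 also had log2 fold changes slightly below 0, and DNAJB1 stayed higher. The 68.1% holds for the main scaling only, and the share of all entries higher with equal upper quartiles is not given here. The median log2 fold change was 0.00 over the 10 genes and 0.07 over all entries. Individual log2 fold changes ran from -0.16 to 0.11, inside the range from -0.24 to 0.33 that held the middle 90% of tested entries.

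**Figure D2:**
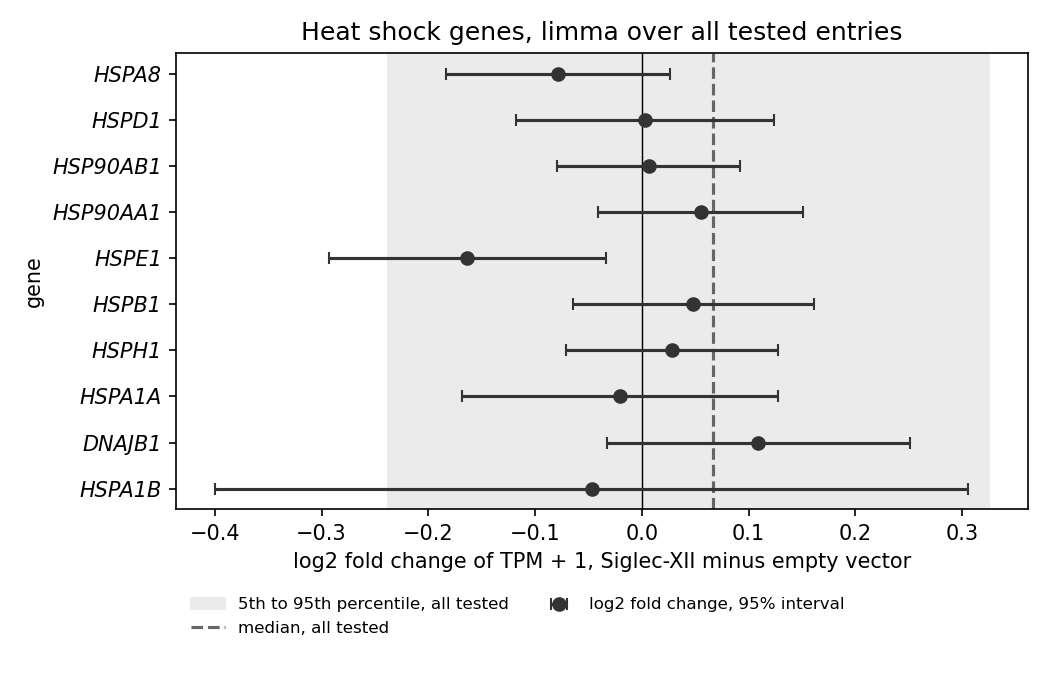
Log2 fold change of TPM + 1 (Siglec-XII minus empty vector) for each heat shock gene, with the 95% interval from limma, beside the median (dashed line) and the 5th to 95th percentile (grey) of all tested entries. HSPE1, at -0.16, is the only gene whose interval does not reach 0, and HSPA1B has the widest interval, from -0.40 to 0.31.

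HSPA8 was measured at 3386, 3695, 3633 and 3692 TPM in empty vector replicates 1 to 4, and at 3411, 3284, 3457 and 3485 TPM in the Siglec-XII replicates. Empty vector replicate 1 was low within its group and fell among the Siglec-XII libraries, while the other 3 empty vector libraries were above all of them. The log2 fold change was -0.08 (95% interval -0.18 to 0.03, adjusted p = 0.430 in limma). This was a lower value than the median of all entries, and it depended on the scaling. It was -0.14 with equal upper quartiles (unadjusted p = 0.00558, adjusted p = 0.197 in limma), -0.12 with a total that left out the 100 most abundant entries and genes of the mitochondrial genome (unadjusted p = 0.0130 in limma), and 0.03 under quantile normalization.

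The inducible pair HSPA1A and HSPA1B encodes nearly the same HSP70 protein, which cells make in quantity after stress. HSPA1A stood at 111, 120, 107 and 98.3 TPM with the empty vector and at 107, 109, 100.1 and 114 TPM with Siglec-XII. The groups overlapped over nearly their whole range, and the log2 fold change was -0.02 (95% interval -0.17 to 0.13). HSPA1B stood at 62.0, 94.5, 93.5 and 85.9 TPM with the empty vector and at 70.2, 78.6, 71.8 and 104 TPM with Siglec-XII. Here both the lowest library, empty vector replicate 1, and the highest, Siglec-XII replicate 4, stood apart from others of their own group, and the log2 fold change was -0.05 (95% interval -0.40 to 0.31). The spread of HSPA1B within groups, an SD of 0.27 on the log2 scale, was larger than that of 98.6% of the 2030 entries at least as abundant as the least abundant member, whereas the SD of HSP90AB1, 0.03, was larger than that of 1.58% of them.

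Both symbols stood on several entries, and the level of HSPA1B depends on which of them are counted. The pair lies 9792 bases apart on chromosome 6 (GRCh37, chr6:31783320-31785723 and chr6:31795515-31798031, plus strand), in a region for which hg19 also holds alternative haplotypes, and the 5 entries per symbol carry different gene IDs. The chosen entries, ENSG00000235941 and ENSG00000232804, are not among the genes of the primary GRCh37 annotation, and the entries with the IDs of that annotation, ENSG00000204389 and ENSG00000204388, had at most 0.323 and 0.971 TPM. ENSG00000235941 held 99.4% of all HSPA1A TPM, and ENSG00000232804 held 74.6% of HSPA1B, with 20.7% on ENSG00000231555 and 4.08% on ENSG00000224501. In empty vector replicate 1, where the chosen HSPA1B entry was lowest, ENSG00000231555 was highest at 28.8 TPM, and in Siglec-XII replicate 4, where the chosen entry was highest, it was lowest at 13.97 TPM. Summed over its 5 entries, HSPA1B was still lowest in empty vector replicate 1, at 96.2 TPM. Its sum was highest in empty vector replicate 2, at 124.9 TPM, with Siglec-XII replicate 4 at 123.9 TPM. Of the 31-base words of the annotated HSPA1A transcript, 76.9% also occur in HSPA1B, and 73.3% of those of HSPA1B occur in HSPA1A, so the split between the genes is uncertain as well. Summed over every entry of both symbols, the level was 223 ± 17.0 TPM with the empty vector and 217 ± 15.1 TPM with Siglec-XII (SD, n = 4). The highest library of this joint sum was 1.19-fold its lowest. For each symbol summed over its own entries it was 1.30-fold for HSPA1B and 1.22-fold for HSPA1A, against 1.68-fold for the chosen HSPA1B entry.

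**Figure D3:**
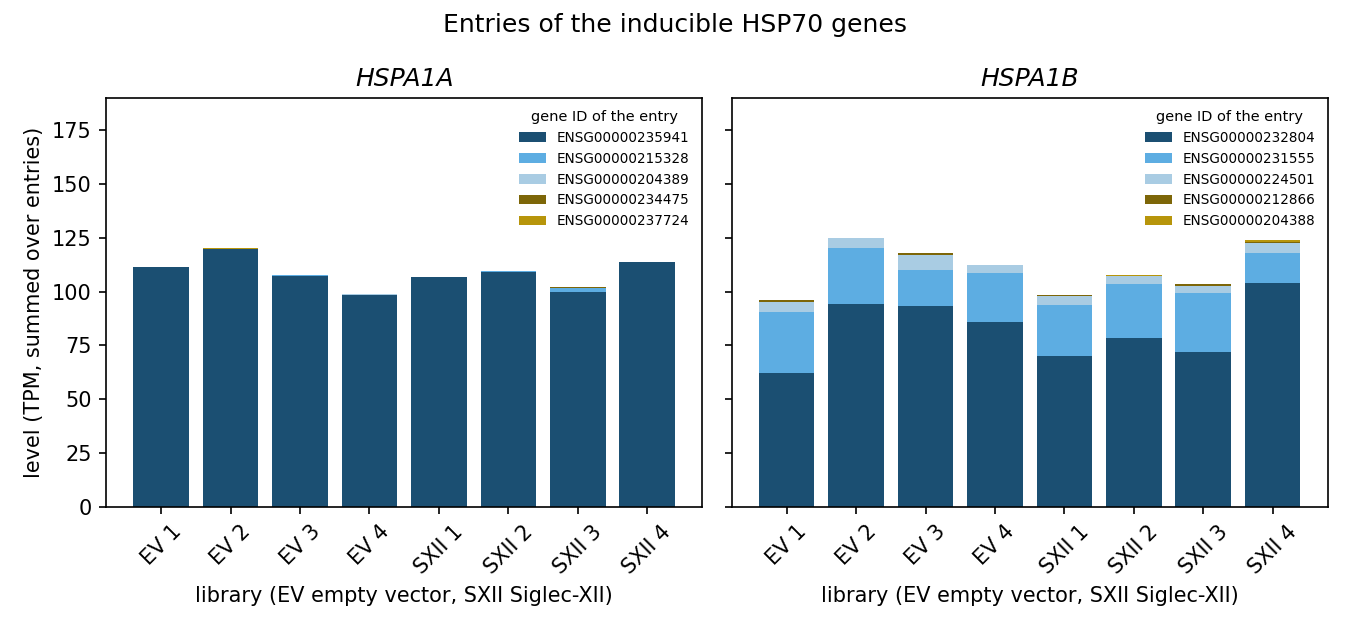
TPM of HSPA1A (left) and HSPA1B (right) in each library, stacked by the gene ID of the entry that holds it. Nearly all HSPA1A lies on 1 entry, while HSPA1B is divided among ENSG00000232804, ENSG00000231555 and ENSG00000224501 in proportions that differ between libraries.

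DNAJB1, the J-domain partner of inducible HSP70, stood at 88.2, 105, 96.2 and 101 TPM with the empty vector and at 105, 98.3, 106 and 112 TPM with Siglec-XII. The lowest value was empty vector replicate 1 and the highest Siglec-XII replicate 4, with overlap between the groups. Its log2 fold change, 0.11 (95% interval -0.03 to 0.25, adjusted p = 0.418 in limma), was the highest of the 10 and stood at the 62.2nd percentile of all tested entries.

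HSPH1, the HSP110 exchange factor, stood at 385, 416, 380 and 380.1 TPM with the empty vector and at 412, 388, 404 and 388 TPM with Siglec-XII. Replicate 2 was far above the other empty vector libraries and above all Siglec-XII libraries, so the groups overlapped through that library only. The log2 fold change was 0.03 (95% interval -0.07 to 0.13), and 0.06 without empty vector replicate 2.

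HSP90AA1, the stress-inducible cytosolic HSP90, stood at 1214, 1187, 1140 and 1151 TPM with the empty vector and at 1279, 1186, 1226 and 1183 TPM with Siglec-XII. HSP90AB1, its constitutive counterpart, stood at 1211, 1242, 1197 and 1192 TPM with the empty vector and at 1218, 1179, 1211 and 1255 TPM with Siglec-XII. Both sets of groups overlapped, and the highest library was only 1.12-fold the lowest for HSP90AA1 and 1.06-fold for HSP90AB1. The log2 fold changes were 0.06 (95% interval -0.04 to 0.15) and 0.01 (95% interval -0.08 to 0.09), and both were slightly negative with equal upper quartiles. Under quantile normalization they were 0.11 (unadjusted p = 0.0213, adjusted p = 0.311 in limma) and 0.07.

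HSPB1, the small heat shock protein also called HSP27, stood at 513, 457, 496 and 472 TPM with the empty vector and at 498, 491, 482 and 533 TPM with Siglec-XII. The groups overlapped, with empty vector replicate 2 lowest and Siglec-XII replicate 4 highest. The log2 fold change was 0.05 (95% interval -0.06 to 0.16).

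Of the mitochondrial chaperonin pair, HSPE1, the lid subunit, stood at 1023, 930, 934 and 1029 TPM with the empty vector and at 928, 846, 906 and 815 TPM with Siglec-XII. All Siglec-XII libraries were lower, but the gap was narrow, since the lowest empty vector library (929.7 TPM) and the highest Siglec-XII library (928.5 TPM) were almost level. The group means were 979 ± 54.3 and 874 ± 52.5 TPM (SD, n = 4), with a log2 fold change of -0.16 (SE 0.06, 95% interval -0.29 to -0.03, unadjusted p = 0.0187, adjusted p = 0.216 in limma), at the 8.18th percentile of all tested entries. Without Siglec-XII replicate 2 or replicate 4 the unadjusted p was 0.0513 or 0.0524 in limma. Fewer cells with a transcript and less of it per cell cannot be told apart in bulk RNA. HSPD1, the chamber subunit, stood at 1782, 1741, 1734 and 1763 TPM with the empty vector and at 1814, 1664, 1913 and 1655 TPM with Siglec-XII. The Siglec-XII libraries lay on both sides of the empty vector libraries, and the log2 fold change was 0.00 (95% interval -0.12 to 0.12).

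On chromosome 2 the annotated span of HSPD1 (GRCh37, chr2:198351308-198381461, minus strand) contains that of HSPE1 (chr2:198364864-198368173, plus strand). The listed transcripts of the pair lie head to head, with starts 539 bases apart and 0 exon bases shared. The HSPE1 transcript has 557 bases, and 55.0% of its 31-base words occur in 18 other genes. Its 26 pseudogene entries summed to 9.99 TPM, or 1.08% of the HSPE1 level, and HSPE1 with those entries added had a log2 fold change of -0.16. HSPE1-MOB4, a readthrough gene picked out after its values were seen, contains 30.9% of these words and stood at 16.7 to 20.7 TPM with the empty vector and at 20.5 to 26.7 TPM with Siglec-XII, a log2 fold change of 0.31 (adjusted p = 0.161 in limma), so it was higher where HSPE1 was lower but at a small share of the HSPE1 level. Entries of 500 to 1000 bases, the class of HSPE1 and HSPB1, had a median log2 fold change of 0.05. The part of transcript length and of shared words in the HSPE1 difference was not tested.

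Ratios within a library do not depend on how libraries were scaled to each other, and 5 were compared with a two-sided exact permutation test, which with 70 labellings cannot give a p below 0.0286. HSPD1 to HSPE1 was 1.74, 1.87, 1.86 and 1.71 in the empty vector libraries and 1.95, 1.97, 2.11 and 2.03 in the Siglec-XII libraries. Every Siglec-XII library was above every empty vector library, and the log2 ratio differed by 0.17 (exact permutation p = 0.0286, adjusted p = 0.0714 over the 5 ratios). DNAJB1 to HSPA8 was 0.0260, 0.0284, 0.0265 and 0.0274 in the former and 0.0307, 0.0299, 0.0308 and 0.0321 in the latter. These groups did not overlap either, and the log2 ratio differed by 0.19 (exact permutation p = 0.0286, adjusted p = 0.0714). With this smallest p, the adjustment over 5 ratios could reach 0.05 only if at least 3 of them had groups fully apart, so the adjusted values say little about either ratio. Both used genes whose own differences were already given.

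For HSPH1 to HSPA8 the log2 ratio was 0.11 higher with Siglec-XII (exact permutation p = 0.0857, adjusted p = 0.143), with overlap. The inducible pair to constitutive HSPA8, a ratio that rises in heat-shocked cells, averaged 0.0535 in the former and 0.0551 in the latter when taken from the chosen entries, a log2 difference of 0.04 (exact permutation p = 0.657). From all entries of both symbols it averaged 0.0617 and 0.0634 (exact permutation p = 0.600). HSP90AA1 to HSP90AB1 averaged 0.969 in the first group and 1.002 in the second, a log2 difference of 0.05 (exact permutation p = 0.286). The ratios of inducible to constitutive HSP70 and of inducible to constitutive HSP90 thus had groups that overlapped, unlike DNAJB1 to HSPA8.

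**Figure D4:**
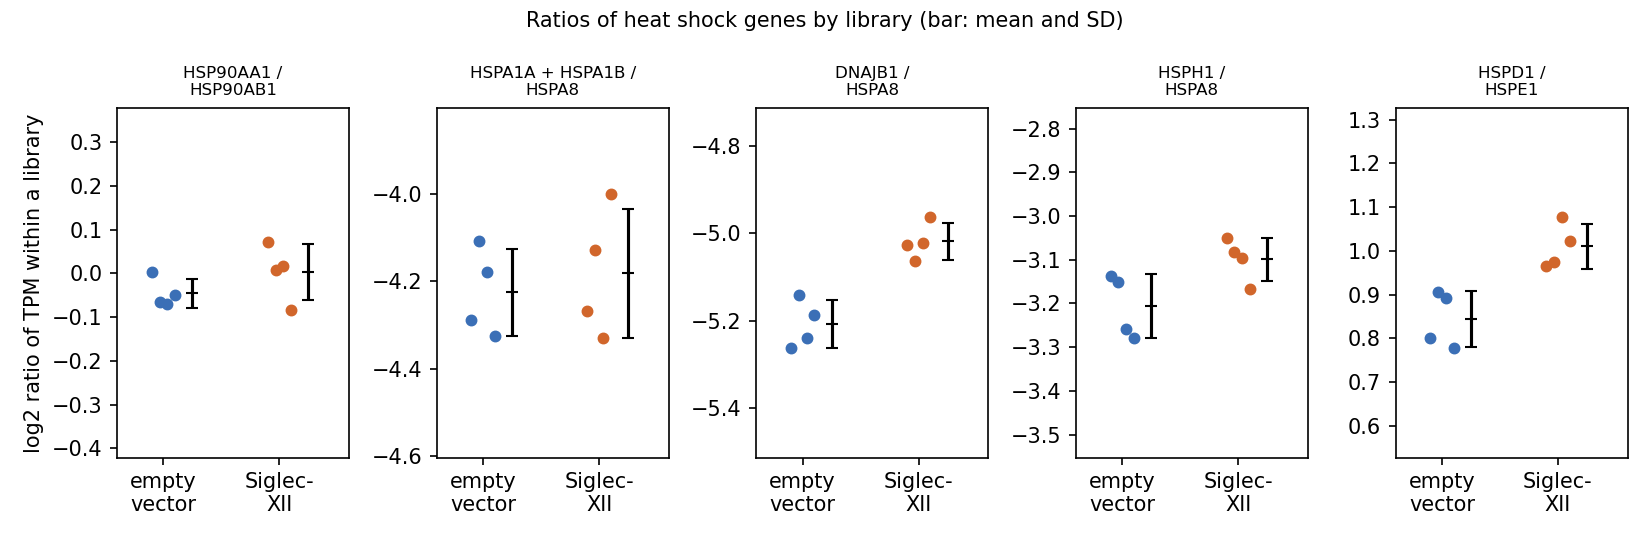
Log2 ratio of TPM within each library for 5 pairs of heat shock genes, one point per library, with the mean and SD of each group beside the points. The axes differ in position but span the same length. The groups are apart for DNAJB1 to HSPA8 and for HSPD1 to HSPE1 and overlap for the other 3 pairs.

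Within its group, empty vector replicate 2 was highest for 6 of the 10 genes (DNAJB1, HSP90AB1, HSPA1A, HSPA1B, HSPA8 and HSPH1) and lowest for 2, against 34.9% and 16.6% of all tested entries. Siglec-XII replicate 4 was highest in its group for 6 of the 10 (DNAJB1, HSP90AB1, HSPA1A, HSPA1B, HSPA8 and HSPB1) and lowest for the other 4, against 34.6% and 21.5% of all tested entries, so the 10 genes did not go one way in that library. Of the 75 tested genes of the further lists described next, these libraries were highest for 33.3% and 29.3%. No test was made of these shares. Without empty vector replicate 2 the log2 fold changes of HSPA1A and HSPA1B were 0.03 and 0.02, and still 0 of the 10 genes were past the adjusted p in limma.

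Of 81 further chaperone genes in 9 lists, 75 were tested, and in limma 0 were past an adjusted p of 0.05 in either direction. At an unadjusted p of 0.05 or less, 13 were higher and 4 lower, where 13.9% and 2.61% of all tested entries were. The groups did not overlap for 8 higher and 3 lower genes, where 9.17% and 1.68% of all entries were so placed. HSPA6 is among the lower genes of both counts, although it passed the filter through the empty vector libraries alone and its groups had to be apart. The median log2 fold change of the 75 was 0.04. Without empty vector replicate 2, 3 of these genes were past the adjusted p and higher, HYOU1, BAG3 and HSPB8. In that fit 112 of 15353 entries (0.729%) were, against 53 of 15590 with all libraries. With a library left out such entries numbered 10 to 112, so this was the library whose removal gave the most.

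Among the other cytosolic HSP70 and HSP110 genes, 5 of 6 were tested, and HSPA6 had the largest fold change of all the lists. HSPA6 encodes a strictly stress-inducible HSP70, and its window held a 3-unit heat shock element match.
HSPA6, chr1:161524442-161524501, plus strand: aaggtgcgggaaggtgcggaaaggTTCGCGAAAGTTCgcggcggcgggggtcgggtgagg
It stood at 1.89, 3.87, 1.6 and 1.92 TPM with the empty vector and at 0.901, 0.628, 0.651 and 0.781 TPM with Siglec-XII. Empty vector replicate 2 was again the highest. All Siglec-XII libraries were below the filter of 1 TPM, so HSPA6 was tested only because all empty vector libraries were above it. That the groups were apart was thus fixed by the filter, and the interval and p that follow are no test of a difference. The log2 fold change was -0.89 on the TPM + 1 scale (95% interval -1.34 to -0.43, adjusted p = 0.0985 in limma). It was -0.86 to -0.93 with any 1 Siglec-XII library left out, while without an empty vector library HSPA6 no longer passed the filter. These values say nothing of how the change depends on the empty vector libraries. With a pseudocount of 0.1 the log2 fold change was -1.45. HSPA4, the most abundant of this list, stood 0.07 higher in log2 fold change (adjusted p = 0.409), and HSPA1L, which lies beside the inducible pair, 0.20 (adjusted p = 0.486). HSPA1L also stood on 5 entries, and the one used held 100% of its TPM at a low level of 1.64 to 3.19 TPM.

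The heat shock factors and their inhibitor gave 4 tested genes. Of these 1, HSF4, was at an unadjusted p of 0.05 or less and lower, where 2.61% of all tested entries were. HSF1, the main factor, stood at 51.8, 61.0, 61.4 and 58.7 TPM with the empty vector and at 60.5, 65.2, 59.97 and 71.7 TPM with Siglec-XII. The groups overlapped, and the log2 fold change was 0.14 (adjusted p = 0.378 in limma). HSF4, a factor best known from the lens, was low at 1.41 to 3.16 TPM against 0.390 to 2.05 TPM, with overlap and a log2 fold change of -0.61 (adjusted p = 0.299). HSBP1, which binds trimers of HSF1, had 0.05 (adjusted p = 0.764).

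Exchange factors and adaptors of HSP70 had higher means for 7 of 9 genes, near the 68.1% of all tested entries. BAG3, a nucleotide exchange factor that also works in selective autophagy, stood at 45.4, 51.5, 46.5 and 43.1 TPM with the empty vector and at 57.5, 55.8, 53.2 and 55.9 TPM with Siglec-XII. The groups did not overlap, and the log2 fold change was 0.25 (adjusted p = 0.109 in limma). Without empty vector replicate 2, its highest empty vector library, it was 0.30 with an adjusted p of 0.0445 in limma. In that fit 0.729% of all entries were past the adjusted p and higher. Of the 9 exchange factors and adaptors, 2 were at an unadjusted p of 0.05 or less and both were higher, where 13.9% of all tested entries were. The adaptor STIP1, which links HSP70 to HSP90, had 0.01, and ST13 had -0.07. Of 14 J-domain genes, 2 were at an unadjusted p of 0.05 or less, both higher, against the same 13.9%. The log2 fold changes of the 14 ran from -0.15 for DNAJC2 to 0.26 for DNAJB14, with the abundant DNAJA1 at 0.09.

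The 9 HSP90 co-chaperones had a median log2 fold change of 0.01, with 2 higher and 0 lower at an unadjusted p of 0.05 or less. Of all tested entries 13.9% were higher and 2.61% lower at that p. PTGES3, the p23 protein that stabilises closed HSP90, had -0.05, PPID -0.10, and the myosin chaperone UNC45A 0.29 (adjusted p = 0.194 in limma). Of 9 other small heat shock genes, 4 were tested. HSPB8, the partner of BAG3, stood at 54.5, 76.4, 57.0 and 51.8 TPM with the empty vector and at 71.8, 72.3, 67.7 and 77.9 TPM with Siglec-XII. The groups overlapped through empty vector replicate 2 alone. The log2 fold change was 0.28 (adjusted p = 0.247 in limma). Without that library it was 0.40 with an adjusted p of 0.0311 in limma, but leaving it out removes the overlap itself. In that fit 0.729% of all entries were past the adjusted p and higher. HSPB7 was near the filter and had 0.35 (adjusted p = 0.507), HSPB11 had -0.02, and CRYAA was listed at 0.

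Among the 11 other mitochondrial chaperones and proteases, 2 were at an unadjusted p of 0.05 or less, both higher. Of all tested entries 13.9% were higher at that p. HSPA9, the HSP70 of the matrix, had a log2 fold change of 0.08, CLPX, the unfoldase of a matrix protease, 0.25 (adjusted p = 0.203 in limma), and DNAJC19, of the import motor, -0.08. The cytosolic chaperonin CCT, a folding chamber for actin and tubulin, and its helper prefoldin gave 14 tested genes with a median of 0.02. PFDN4, a prefoldin subunit, stood at 272, 252, 237 and 282 TPM with the empty vector and at 234, 196, 228 and 195.9 TPM with Siglec-XII. The groups did not overlap, and the log2 fold change was -0.29 (adjusted p = 0.134). PFDN5, with means of 393 and 345 TPM, was also lower without overlap, with -0.19 (adjusted p = 0.168 in limma). These were the 2 of the 14 genes lower without overlap, where 1.68% of all tested entries were. PFDN1, another subunit, had 0.16 (adjusted p = 0.299), and CCT5, the most abundant of the list, 0.01.

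Of the 5 endoplasmic reticulum counterparts, 3 were higher without overlap, against 9.17% of all tested entries, in a list too short to say more. HYOU1, the HSP110-like protein of that compartment, stood at 142, 157, 143 and 142.8 TPM with the empty vector and at 166, 169, 175 and 168.8 TPM with Siglec-XII. The groups did not overlap, and the log2 fold change was 0.21 (adjusted p = 0.0894 in limma). Without empty vector replicate 2, its highest empty vector library, it was 0.25 with an adjusted p of 0.0375 in limma. In that fit 0.729% of all entries were past the adjusted p and higher. HSP90B1, the HSP90 of this compartment and the most abundant of the list, had 0.04, and DNAJB9, an inducible J-domain protein, -0.04.

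**Figure D5:**
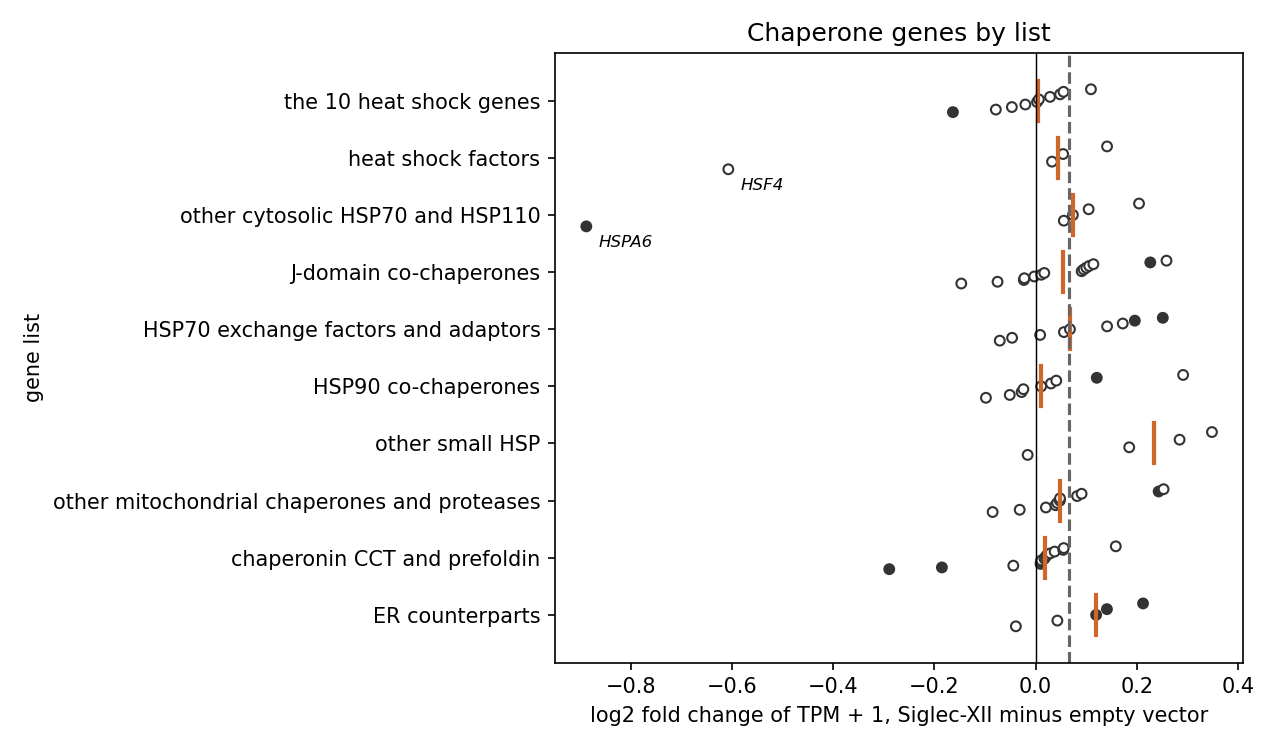
Log2 fold change of TPM + 1 (Siglec-XII minus empty vector) for the 10 heat shock genes and for the tested genes of 9 further chaperone lists, one point per gene. Filled points are genes whose groups do not overlap, the orange bar is the median of the list and the dashed line the median of all tested entries at 0.07. HSPA6 at -0.89 and HSF4 at -0.61, both of low level, lie far from the others.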

How the data were processed

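RNA-seq was done on 8 Caco-2 samples, 4 per group (empty vector, Siglec-XII), grouped by their titles. The authors quantified reads with kallisto (0.45.0 in the submitters' processing notes) on hg19 and deposited log2(TPM + 1) per gene entry. The labels name an rRNA-depleting stranded kit and the methods a poly(A) kit. The deposited log2 values, taken back to TPM, sum to the same total in each library, so read counts are unknown and no count test was used.

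Entries at 1 TPM or more in at least 4 samples (15590) entered limma 3.58.1 (R 4.3.3, lmFit, eBayes with trend, Benjamini-Hochberg adjustment), which was tested on simulated data. Ratios used a two-sided exact permutation test. Positions and 31-base words came from GENCODE lifted to GRCh37, promoters from RefSeq (all 10 genes matched). Figures were drawn with matplotlib 3.10.9.

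The 10 genes and all lists were chosen with earlier results of these data known. Named genes are the 10, SIGLEC12, and per list the most abundant gene, those with the highest and lowest fold change and any past the threshold. HSPE1-MOB4 and PFDN5 were added after their values were seen.

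Alternatives were a pseudocount of 0.1, no minimum TPM, quantile normalization, a floor of 5 TPM on the mean, scaling to equal upper quartiles, a total without mitochondrially encoded genes and the 100 most abundant entries, the replicate number as a block, eBayes without trend, each library left out, and sums over entries and over near-identical copies. The ratio from all entries was added after the data were seen.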

Additional observations from a re-analysis of the deposited data

Results flagged for a closer look

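HSPH1 in the empty vector group had a library far from the others. Replicate 2 stood at 8.70 on the log2(TPM + 1) scale (416 TPM), and its gap to the nearest library was 0.846 of the group's whole range. This was 1 of 30 groups tested, and chance gives about 1 in 20.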

How the results depend on the processing

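Across 18 alternatives, 0 of the 10 heat shock genes were past the adjusted p (lowest 0.160), and HSPE1 (-0.23 to -0.13) and DNAJB1 (0.05 to 0.14) kept their sign. The count at an unadjusted p of 0.05 or less went from 1 to 2 under quantile normalization (HSP90AA1 added), equal upper quartiles and the reduced total (HSPA8 added in both), and to 0 to 2 with a library left out. It was 2 without empty vector replicate 1 and 0 without Siglec-XII replicate 2 or 4. Non-overlapping genes became 2 under equal upper quartiles and the reduced total, and 1 to 2 with a library left out, 2 without empty vector replicate 1 or 2. The share of all tested entries at that unadjusted p is not given here for these fits. Nor is the share without overlap under the 2 scalings. The main shares do not carry over, so these counts of the 10 genes have no background beside them. The median over all entries, 0.07, was 0.01 under quantile normalization and equal upper quartiles. Entries past the adjusted p went from 101 to 51 with no minimum TPM, to 54 without trend and to 40 to 154 with a library left out, 154 without empty vector replicate 2. Those higher with Siglec-XII went from 53 to 21, 28, 24, 29, 18 and 23 with no minimum TPM, quantile normalization, equal upper quartiles, the reduced total, the replicate block and no trend, and to 10 to 112 with a library left out. Non-overlapping entries, 1691, numbered 2067 to 2995 with a library left out. Chaperone list genes past the adjusted p and higher were 0 to 3 with a library left out. The cause of these shifts was not tested.

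Signs turned for small values, which include HSPA8 at -0.08 in the main fit. Under quantile normalization HSPA8 was 0.0344, CCT5 -0.0245, HSBP1 -0.00788 and STIP1 -0.0182. Under equal upper quartiles HSPH1 was -0.0332, HSP90AA1 -0.00672, HSP90AB1 -0.0553, HSPB1 -0.0133, HSPD1 -0.059, CCT5 -0.0519, HSP90B1 -0.0188, HSBP1 -0.00712 and STIP1 -0.0528. Under the reduced total HSPH1 was -0.0144, HSP90AB1 -0.0365, HSPD1 -0.0402, CCT5 -0.0331 and STIP1 -0.034. With a library left out, log2 fold changes ranged from -0.069 to 0.0252 for HSPA1A, -0.184 to 0.0157 for HSPA1B, -0.0379 to 0.0317 for HSPD1, -0.00894 to 0.021 for HSP90AB1, -0.0161 to 0.0317 for CCT5, -0.000448 to 0.114 for HSBP1, -0.0137 to 0.0335 for STIP1, -0.00444 to 0.0742 for HSP90B1, -0.107 to 0.0488 for DNAJB9 and -0.0367 to 0.0134 for HSPB11. The log2 ratio of the inducible pair to HSPA8 ranged from -0.0173, without Siglec-XII replicate 4, to 0.0927.

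Same-numbered libraries correlated by -0.0742 to 0.0591 in their deviations from group means, so the numbers do not pair them. The replicate block left 69 entries past the adjusted p and 0 of the 10 genes, and 0 of the 75 list genes. The table gives no depth, which limits low values such as HSPA6 and HSF4.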
